A study of Mus musculus with 25 samples.

Results

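The complement and clotting genes of mouse liver were described gene by gene over 6 groups of liver samples. The list held 42 genes, taken by name for their place in complement, clotting or fibrinolysis. Of these, 39 had a probe set that named no other gene, and all 39 passed the filter on dim genes, among 15951 genes tested of 19938 measured. C3 and Cpb2 had no listed probe set, the probe set of Klkb1 also named Cyp4v3, and these 3 genes were not analysed here. Values are log2 signals of 1-colour Affymetrix gene arrays, so a difference of 1 is a factor of 2 in signal. Levels of different probe sets are on different scales and were not set against each other.

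Livers came from FVB;129 mice. Deletion was aimed at hepatocytes, with Cre recombinase driven by the promoter of albumin and loxP sites in Rb, in p53 or in both genes. Diethylnitrosamine (DEN), a carcinogen that liver enzymes turn into a DNA alkylating agent, was given once into the peritoneum (20 mg/kg) when mice were 14 days old, and their livers were collected 24 h later. The groups were DEN-treated DKO (Rb and p53 both deleted, 5 arrays), DEN-treated RbKO (4 arrays), DEN-treated p53KO (5 arrays) and DEN-treated WT (5 arrays), with untreated DKO (3 arrays) and untreated WT (3 arrays). Untreated RbKO and p53KO livers were not analysed here. The sample labels give untreated livers no treatment, while the series text speaks of saline. For untreated mice the sample records give day 14 too, but no time to collection, so a difference in age from DEN livers was not checked. Whether WT mice carried Cre or loxP sites is not given in the sources used here. Nothing in the labels says that replicates were separate animals, so p-values measure the spread between samples.

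Complement is a chain of plasma proteases that tags and lyses cells. Lectins or the C1 complex start it, C3 amplifies it, and the terminal proteins assemble into a pore. Clotting is a chain of proteases that ends in thrombin, which cuts fibrinogen into fibrin, and plasmin dissolves the fibrin again. Hepatocytes make most of these plasma proteins and secrete them into blood. Several of them, fibrinogen above all, are acute phase proteins whose genes respond to interleukin-6 through STAT3 and C/EBP factors, while HNF4A keeps many of the genes active in hepatocytes.

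Promoter windows of 300 bases, from 250 before to 50 after the start of transcription, were available for 30 of the 39 measured genes, in 32 windows (RefSeq, GRCm38.p6). Those of 6 genes are printed because they show the range of responses reported here: Serpinf2 and Masp2 were lower and F9 was higher after DEN in DKO livers. Of the 3 fibrinogen chains, Fgb and Fgg showed small differences, and Fga was called lower only in some settings. The window of Masp2 lies inside the span of that gene in the annotation. That of F9 starts before the gene, but both of its marked stretches lie inside the annotated span. Capitals mark matches, on either strand, to TTCNNNGAA (a STAT motif), CTGGGAA (an acute phase motif of fibrinogen genes) or TTGCNNAA (a C/EBP motif).
Serpinf2, chr11:75439452-75439751, minus strand: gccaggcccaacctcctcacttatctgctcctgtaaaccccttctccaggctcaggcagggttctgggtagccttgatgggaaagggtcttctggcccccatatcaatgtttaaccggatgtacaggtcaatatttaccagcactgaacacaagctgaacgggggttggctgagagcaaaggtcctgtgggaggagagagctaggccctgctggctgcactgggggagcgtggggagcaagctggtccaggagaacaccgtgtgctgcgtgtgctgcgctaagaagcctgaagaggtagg
Masp2, chr4:148602294-148602593, plus strand: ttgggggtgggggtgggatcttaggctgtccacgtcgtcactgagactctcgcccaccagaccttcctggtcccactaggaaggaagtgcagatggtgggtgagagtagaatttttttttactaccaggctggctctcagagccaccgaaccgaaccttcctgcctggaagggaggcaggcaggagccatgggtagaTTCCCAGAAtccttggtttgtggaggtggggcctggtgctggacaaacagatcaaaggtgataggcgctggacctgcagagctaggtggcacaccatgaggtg
F9, chrX:59999214-59999513, plus strand: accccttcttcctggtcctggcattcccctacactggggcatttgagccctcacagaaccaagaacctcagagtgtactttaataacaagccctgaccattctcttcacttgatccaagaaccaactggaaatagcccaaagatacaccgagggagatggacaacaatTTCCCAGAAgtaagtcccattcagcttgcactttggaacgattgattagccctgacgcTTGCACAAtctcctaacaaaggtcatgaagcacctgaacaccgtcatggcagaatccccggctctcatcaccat
Fga, chr3:83025903-83026202, plus strand: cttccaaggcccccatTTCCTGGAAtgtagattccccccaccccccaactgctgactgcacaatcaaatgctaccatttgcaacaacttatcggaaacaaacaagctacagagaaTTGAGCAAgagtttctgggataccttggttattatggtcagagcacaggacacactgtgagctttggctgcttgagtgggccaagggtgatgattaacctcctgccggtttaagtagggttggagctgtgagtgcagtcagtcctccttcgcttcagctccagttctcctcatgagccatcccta
Fgb, chr3:83049814-83050113, minus strand: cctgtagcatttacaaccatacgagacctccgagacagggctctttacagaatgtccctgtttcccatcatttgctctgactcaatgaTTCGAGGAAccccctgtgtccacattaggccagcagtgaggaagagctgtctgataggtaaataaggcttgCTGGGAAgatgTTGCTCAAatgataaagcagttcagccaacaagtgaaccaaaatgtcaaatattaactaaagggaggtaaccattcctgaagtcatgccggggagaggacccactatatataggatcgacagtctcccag
Fgg, chr3:83007474-83007773, plus strand: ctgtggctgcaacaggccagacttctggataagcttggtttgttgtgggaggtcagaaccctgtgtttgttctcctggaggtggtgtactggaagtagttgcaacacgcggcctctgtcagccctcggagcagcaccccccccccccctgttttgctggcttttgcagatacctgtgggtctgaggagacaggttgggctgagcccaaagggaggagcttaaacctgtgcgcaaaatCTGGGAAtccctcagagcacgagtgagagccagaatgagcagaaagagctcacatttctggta
No match to these 3 motifs was found in the window of Serpinf2. In Masp2 and in F9 the TTCNNNGAA match and the CTGGGAA match overlap in the same letters. TTCNNNGAA was found in 8 of 32 member windows (25.0%), against 8.3% of all 32851 windows, and the genes were C1ra, C8a, F9, Fga, Fgb, Masp2, Pros1 and Vtn. CTGGGAA was found in 7 member windows (21.9%), against 11.1% of all windows. TTGCNNAA was found in 9 member windows (28.1%), against 10.8% of all windows. A match describes letters in a window and shows no binding.

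By their names the arrays fall into 3 sets, and the 4 arrays of set 2 stood apart. Set 1 held 16 arrays of all 6 groups. Set 2 held untreated WT replicate 3, DEN WT replicates 4 and 5 and DEN RbKO replicate 4, and set 3 held DEN p53KO replicates 3 to 5 and DEN DKO replicates 4 and 5. Hc, the gene of complement C5, lay between 9.60 and 10.27 log2 in set 2, against 8.09 to 8.57 in set 1 and 8.41 to 8.85 in set 3. Mbl1, a mannose-binding lectin, lay between 7.36 and 7.65 in set 2, against 8.47 to 9.11 in set 1 and 7.51 to 8.33 in set 3. The acute phase gene Saa1 was at 6.62 and 3.03 on the DEN WT arrays of set 2 and at 4.49 on the DEN RbKO array of set 2, while every other DEN array lay between 8.11 and 10.92. Rb1 was at 5.18, 5.57 and 5.51 in DEN DKO and at 5.55, 5.64 and 5.79 in DEN RbKO livers of set 1, against 6.02, 5.90 and 5.82 in DEN WT livers of set 1. It was at 5.56 and 5.76 in DEN p53KO livers of set 1, which overlapped the DEN RbKO and DEN DKO arrays. In untreated livers of set 1 it was at 5.02, 5.02 and 4.76 in DKO, against 5.34 and 5.30 in WT. In set 3 it was at 5.82 and 5.35 in DEN DKO livers, against 5.93, 5.91 and 5.68 in DEN p53KO livers, which overlapped. In set 2 the array labelled DEN RbKO replicate 4 had 6.28, against 5.97 and 5.04 on the DEN WT arrays, so Rb1 was not lower on this array. Whether the Rb1 probes lie in the deleted part is not given in the sources used here, and Trp53 was not analysed here. Results that rest on set 2 are therefore also given within set 1. The hepatocyte marker Alb was at 12.23 log2 or more on every array.

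**Figure D1:**
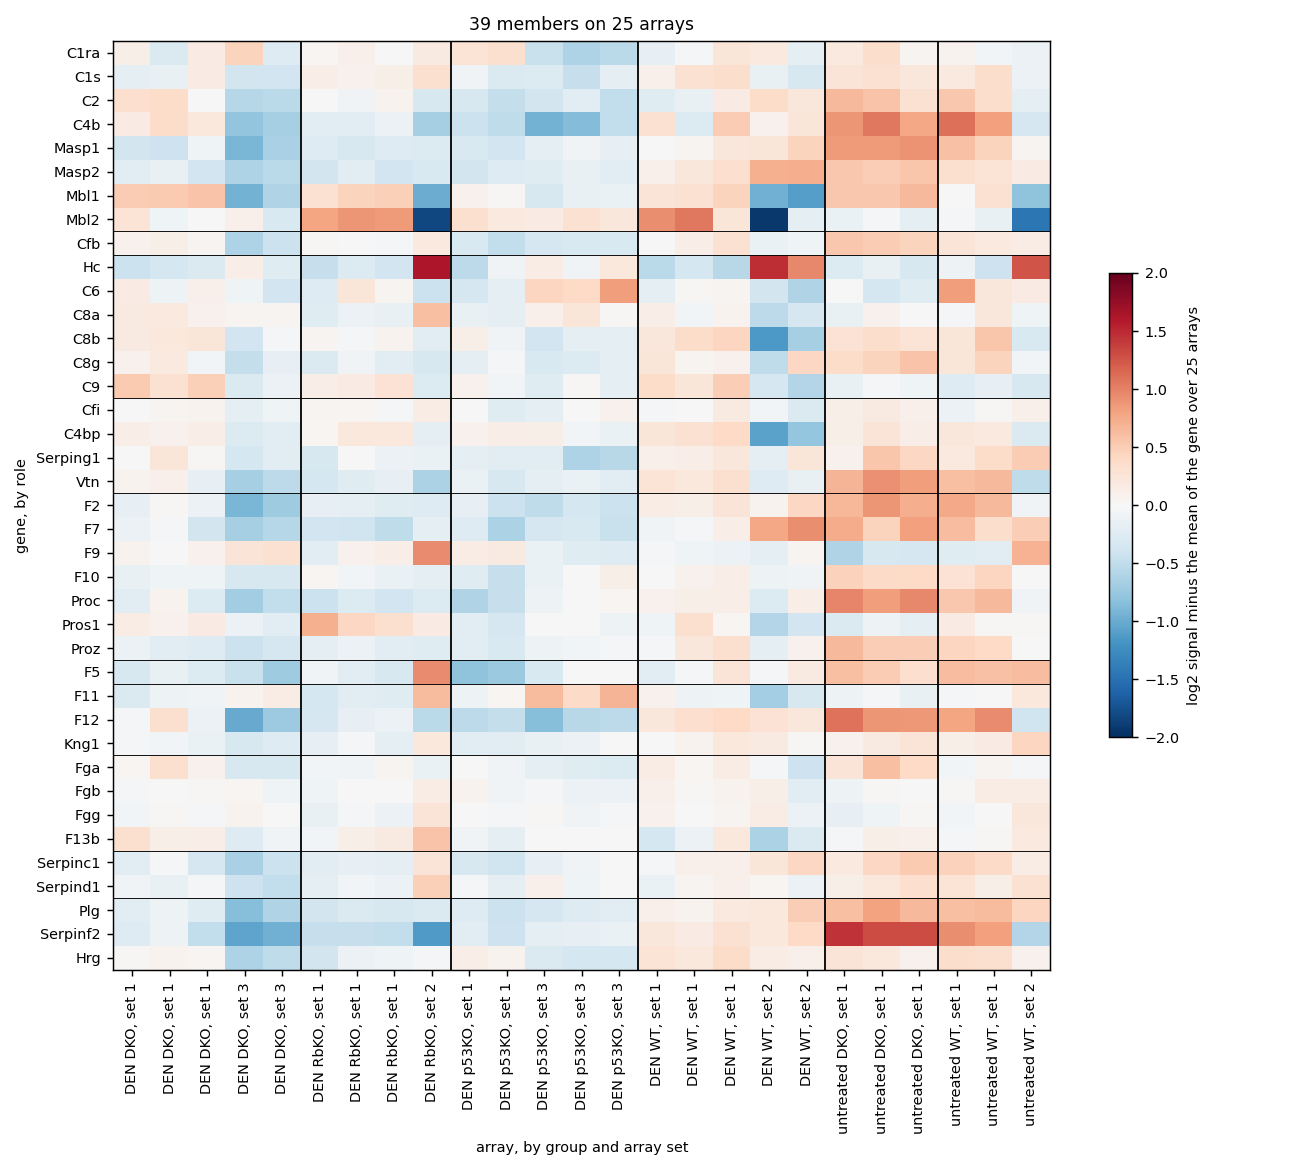
Each cell is the log2 signal of a gene (rows, by role) on an array (columns, by group and array set) minus the mean of that gene over 25 arrays. Serpinf2, Masp1, Masp2 and Plg are below their means on all 5 DEN DKO arrays and above them on all 3 untreated DKO arrays. Hc is high and Mbl1 and Mbl2 are low on the 4 arrays of set 2, except that Mbl2 on DEN WT replicate 5 is close to its mean.

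In DKO livers, 18 of the 39 genes were lower and 2 were higher after DEN at an adjusted p under 0.05 (limma over all genes, Benjamini-Hochberg adjustment, array set as a term). Over all tested genes, 16.5% were called lower and 4.49% higher in this comparison. The median log2 difference of the 39 genes was -0.32, against -0.00 over all tested genes. Within set 1 alone the counts were 18 lower and 2 higher, where 18.7% of all genes were lower and 6.56% higher. In the fit over all sets Serpinf2, Masp1, Proc and F12 fell by more than 1 on the log2 scale. They belong to fibrinolysis, the lectin start, the vitamin K dependent factors and the contact system. The 3 fibrinogen genes were not called, although Fga was called lower on the mean of its probe sets. In whole-liver RNA, fewer cells of a type and less RNA per cell cannot be told apart.

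Serpinf2, the gene of the main inhibitor of plasmin, showed the largest difference. It was at 9.14, 9.30, 8.91, 8.34 and 8.44 log2 in DEN DKO livers, against 10.84, 10.70 and 10.70 in untreated DKO livers. Every DEN DKO array lay below every untreated DKO array, and the lowest values were the pair of set 3. The log2 difference was -1.80 (SE 0.22, limma adjusted p = 3.51e-06), and -1.63 within set 1 (SE 0.11, adjusted p = 7.03e-08). Plg, the gene of plasminogen from which plasmin is cut, was at 10.78, 10.89, 10.74, 10.13 and 10.38 in DEN DKO livers, against 11.58, 11.79 and 11.64 in untreated DKO livers. These groups did not overlap either, and the log2 difference was -0.99 (SE 0.14, limma adjusted p = 1.69e-05). Hrg, the gene of a plasma glycoprotein that binds plasminogen, ranged from 10.36 to 11.34 over the 25 arrays and was not called.

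Of the 8 genes of the classical and lectin start, 3 fell after DEN in DKO livers and none rose. The share of all genes was 16.5% lower and 4.49% higher. Masp1, a protease bound to mannose-binding lectin, was at 7.50, 7.45, 7.78, 6.96 and 7.22 in DEN DKO livers, against 8.73, 8.72 and 8.77 in untreated DKO livers. The groups did not overlap, and the untreated DKO arrays lay within a spread of SD 0.03. The log2 difference was -1.30 (SE 0.15, limma adjusted p = 3.42e-06). Masp2, the lectin pathway protease that cleaves C4 and C2, was at 8.22, 8.29, 8.06, 7.82 and 7.90 in DEN DKO livers, against 8.98, 8.93 and 9.00 in untreated DKO livers. It too showed no overlap, with a log2 difference of -0.87 (SE 0.13, limma adjusted p = 4.98e-05). C4b, whose product forms the convertase with C2, fell by 0.79 (SE 0.21, limma adjusted p = 0.00785), and its copy C4a is near-identical, so its probe set is uncertain. The call of C4b ended after a further quantile normalization. C1ra, C1s and C2 encode early proteases, ranged over 5.37 to 6.42, 7.70 to 8.52 and 4.87 to 6.08, and were not called, although C1s was called lower within set 1 (-0.32, SE 0.11, limma adjusted p = 0.0484). C1ra and C1s have near-identical copies (C1rb and C1s2), so their probe sets are uncertain. Mbl1 ranged from 7.36 to 9.11 and Mbl2, the other mannose-binding lectin, from 7.57 to 10.55, and neither was called.

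Of the 11 measured alternative, terminal and regulator genes, 3 fell and 1 rose after DEN in DKO livers. Of all genes, 16.5% were lower and 4.49% higher there. Cfb, the protease subunit of the alternative pathway convertase, ranged from 10.27 to 11.43 and fell by 0.54 after DEN in DKO livers (SE 0.14, limma adjusted p = 0.00593). In the terminal pathway C9, which forms the wall of the pore, rose and C8g, a subunit of C8, fell. C9 was at 9.72, 9.51, 9.67, 8.91 and 9.09 in DEN DKO livers, against 9.05, 9.17 and 9.12 in untreated DKO livers. Its groups overlapped, because the set 3 arrays lay lowest, and the set-adjusted log2 difference was 0.43 (SE 0.14, limma adjusted p = 0.0344). Leaving out any of 5 arrays in turn (untreated DKO replicates 1 to 3, DEN DKO replicates 1 and 3) ended this call, with an adjusted p of up to 0.112, and within set 1 it was 0.52 (SE 0.10, adjusted p = 0.00113). The call of C9 also ended with no set term and with the array set as a random term. C8g ranged from 7.53 to 8.61 and had a log2 difference of -0.43 (limma adjusted p = 0.0475). This call ended without any of 6 arrays (untreated DKO replicates 1 to 3, DEN DKO replicates 1, 3 and 4) in turn, with an adjusted p of up to 0.165. It also ended with no filter, with centring, with a further quantile normalization and with only the groups compared. Hc (8.09 to 10.27), C6 (4.11 to 5.55), C8a (8.51 to 9.64) and C8b (8.68 to 10.37), also terminal pathway genes, were not called. Among the 4 regulators Vtn, the gene of vitronectin, which binds the forming pore and cell surfaces, ranged from 9.66 to 11.24 and fell by 0.94 (SE 0.15, limma adjusted p = 7.13e-05). Cfi (10.12 to 10.59), the protease that inactivates C3b and C4b, C4bp (8.75 to 10.21), its cofactor for C4b, and Serping1 (9.60 to 10.77), the C1 inhibitor, were not called.

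Of the 7 vitamin K dependent genes, 5 fell and 1 rose after DEN in DKO livers, with a median log2 difference of -0.81. The share of all genes was 16.5% lower and 4.49% higher. F2, the gene of prothrombin, was at 10.63, 10.82, 10.68, 9.89 and 10.08 in DEN DKO livers, against 11.47, 11.68 and 11.53 in untreated DKO livers. Every DEN DKO array lay below every untreated DKO array, and the log2 difference was -0.97 (SE 0.16, limma adjusted p = 8.64e-05). Proc, the gene of the anticoagulant protein C, was at 7.49, 7.78, 7.45, 7.02 and 7.22 in DEN DKO livers, against 8.69, 8.55 and 8.67 in untreated DKO livers. Again the groups did not overlap, and the log2 difference was -1.25 (SE 0.18, limma adjusted p = 1.95e-05). F7, the protease that tissue factor activates, ranged from 6.30 to 7.89 and fell by 0.95 (SE 0.17, limma adjusted p = 0.000181). Proz, the gene of protein Z, which helps to inhibit factor Xa, ranged from 8.35 to 9.42 and fell by 0.81 (SE 0.12, limma adjusted p = 3.59e-05), while F10, the zymogen of factor Xa itself, ranged from 10.10 to 11.02 and fell by 0.63. F9, whose product activates factor X, went the other way. It was at 9.99, 9.92, 10.00, 10.18 and 10.23 in DEN DKO livers, against 9.31, 9.59 and 9.58 in untreated DKO livers, and the groups did not overlap. Its log2 difference was 0.60 (SE 0.17, limma adjusted p = 0.0136), and the adjusted p was 0.0808 without untreated DKO replicate 1. The call of F9 also ended with no set term. Pros1, the gene of protein S, the cofactor of protein C, ranged from 7.08 to 8.37 and was not called.

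F5, the gene of the cofactor of factor Xa, ranged from 8.25 to 10.00 and fell by 0.93 after DEN in DKO livers (SE 0.21, limma adjusted p = 0.0024). Of the 3 measured contact system genes, 2 fell, where 16.5% of all genes were lower. F12, whose product starts contact activation, was at 7.42, 7.78, 7.34, 6.45 and 6.73 in DEN DKO livers, against 8.55, 8.35 and 8.32 in untreated DKO livers. The groups did not overlap, and the log2 difference was -1.05 (SE 0.20, limma adjusted p = 0.000369). The lowest values, 6.45 and 6.73, were the pair of set 3, while all untreated DKO arrays were of set 1. Kng1, the gene of kininogen, ranged from 11.38 to 12.12 and had a log2 difference of -0.32 (limma adjusted p = 0.0442). Its copy Kng2 is near-identical, so this probe set is uncertain, and the call ended without any of 6 arrays (untreated DKO replicates 1 to 3, DEN DKO replicates 3 to 5) in turn, with an adjusted p of up to 0.155. The call of Kng1 also ended within set 1 alone, with centring of each array and with only the groups compared. F11, the next protease of the contact system, ranged from 7.80 to 9.15 and was not called.

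The clotting inhibitor Serpinc1, which encodes antithrombin, was at 10.57, 10.75, 10.46, 10.14 and 10.36 in DEN DKO livers, against 10.99, 11.20 and 11.31 in untreated DKO livers. The groups did not overlap, and the log2 difference was -0.70 (SE 0.15, limma adjusted p = 0.00128). Serpind1, the gene of the thrombin inhibitor heparin cofactor II, ranged from 10.34 to 11.32 and had a log2 difference of -0.40 (limma adjusted p = 0.039). This call ended without any of 6 arrays (untreated DKO replicates 1 to 3, DEN DKO replicates 2, 4 and 5) in turn, with an adjusted p of up to 0.155. It also ended with centring, with a further quantile normalization and with only the groups compared.

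None of the 4 genes of the fibrin group was called after DEN in DKO livers, where 16.5% of all genes were lower and 4.49% higher. Fgb, the gene of the fibrinogen beta chain, was at 12.05, 12.09, 12.12, 12.14 and 12.01 in DEN DKO livers, against 11.99, 12.12 and 12.08 in untreated DKO livers. Fgg, the gamma chain, was at 11.99, 12.07, 12.01, 12.11 and 12.04 in DEN DKO livers, against 11.88, 11.96 and 12.06 in untreated DKO livers. The groups overlapped for both, with log2 differences of 0.04 (SE 0.11, limma adjusted p = 0.823) for Fgb and 0.07 (SE 0.11, limma adjusted p = 0.686) for Fgg. Over all 25 arrays their SDs were 0.09 and 0.10, the smallest of the 39 genes. Both lay near the top of the scale, where the highest value of any probe set was 13.58, and whether the probes could register a rise there was not tested. Fga, the alpha chain, was at 10.99, 11.27, 11.04, 10.63 and 10.63 in DEN DKO livers, against 11.20, 11.55 and 11.35 in untreated DKO livers, which overlapped. Its log2 difference was -0.32 (SE 0.12, limma adjusted p = 0.064). Fga has another probe set, on which DEN DKO livers had 11.17, 11.36, 11.22, 10.47 and 10.67, against 11.63, 11.70 and 11.63 in untreated DKO livers, with no overlap. The mean of its probe sets was called lower (-0.41, SE 0.13, limma adjusted p = 0.0261), and on the first probe set the call was also reached without set 2, a fit chosen after seeing the data (-0.32, SE 0.11, limma adjusted p = 0.0349). F13b, the carrier subunit of factor XIII, ranged from 8.86 to 10.06 and was not called.

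**Figure D2:**
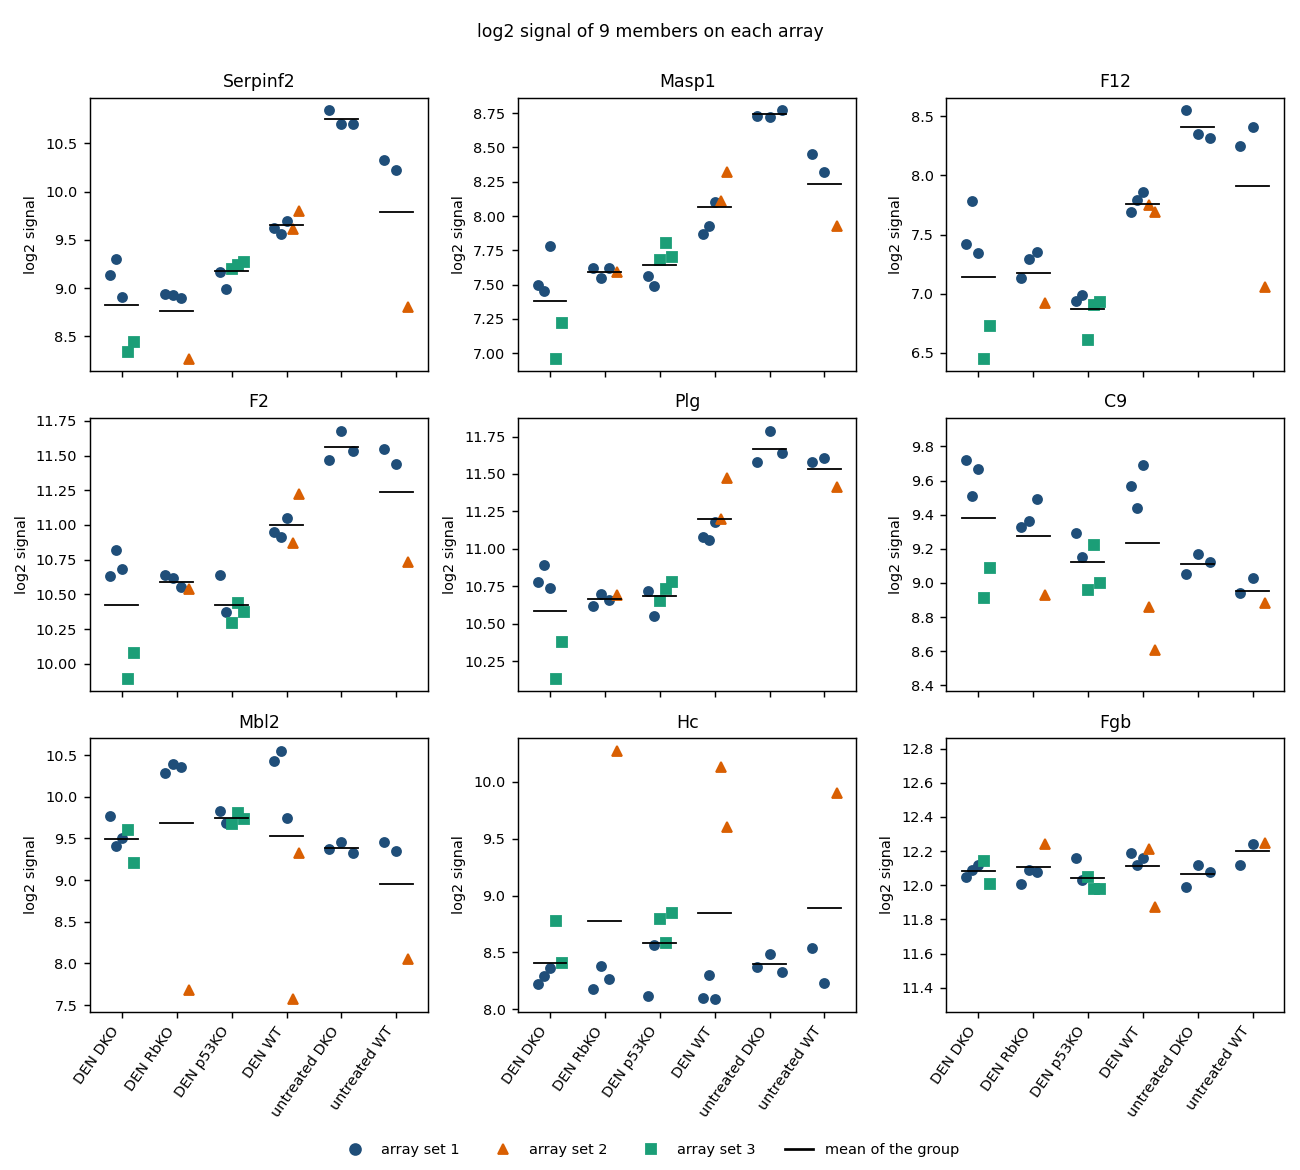
Points are the log2 signals of 9 genes on each array, by group, with the array set as the marker and the group mean as a bar. Each vertical axis spans at least 1.6 log2. DEN DKO arrays lie below untreated DKO arrays for Serpinf2, Masp1, F12, F2 and Plg, and the 4 arrays of set 2 lie above all others for Hc and, except DEN WT replicate 5, below all others for Mbl2.

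In WT livers the number of genes called after DEN depended on the array sets used. Over all sets, 0 of 39 genes were called by limma, and 5 had an unadjusted p under 0.05, where 1.91% of all genes were called lower and 2.08% higher. Their median log2 difference was -0.17, against 0.02 over all tested genes. Within set 1, with 3 DEN and 2 untreated arrays, 11 genes were lower and 2 higher, where 5.96% of all genes were lower and 5% higher. The 11 lower genes were C4b, Serpinf2, F5, C6, F12, C2, F2, Plg, F7, Proc and Masp1, with log2 differences from -0.78 to -0.42. C9 (0.58, SE 0.12, limma adjusted p = 0.00317) and Mbl2 (0.83, SE 0.18, limma adjusted p = 0.00511) were the 2 higher genes. Set 2 held 2 DEN arrays and 1 untreated array, so its values for this comparison rest on a single untreated array and are given with no test.

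Serpinf2 shows how far the sets differ. It was at 9.62, 9.56 and 9.70 in DEN WT livers of set 1 and at 9.61 and 9.80 in those of set 2, against 10.33 and 10.22 in untreated WT livers of set 1 and 8.81 in that of set 2. The DEN WT arrays of both sets lay close together, while the untreated array of set 2 lay below both untreated arrays of set 1. The log2 difference was -0.65 in set 1 (SE 0.12, limma adjusted p = 0.00208), 0.89 in set 2 and -0.09 over all sets (SE 0.20, limma adjusted p = 0.882). F12 was at 7.69, 7.79, 7.86, 7.75 and 7.69 in DEN WT livers, against 8.25, 8.41 and, in set 2, 7.06 in untreated WT livers. Its log2 difference was -0.55 in set 1 and 0.66 in set 2, and that of C4b was -0.78 in set 1 and 0.49 in set 2. F2 was at 10.95, 10.91, 11.05, 10.87 and 11.22 in DEN WT livers, against 11.55, 11.44 and, in set 2, 10.73 in untreated WT livers. For F12, C4b and F2 the untreated array of set 2 lay below both untreated arrays of set 1. Plg was at 11.08, 11.06, 11.18, 11.20 and 11.47 in DEN WT livers, against 11.58, 11.61 and 11.41 in untreated WT livers, with -0.49 in set 1 (limma adjusted p = 0.0074) and -0.07 in set 2. Masp1 was at 7.87, 7.93, 8.10, 8.11 and 8.32 in DEN WT livers, against 8.45, 8.32 and, in set 2, 7.93 in untreated WT livers. Proc was at 7.81, 7.84, 7.85, 7.45 and 7.85 in DEN WT livers, against 8.26, 8.37 and, in set 2, 7.64 in untreated WT livers. In set 1 alone the groups of Plg, Masp1 and Proc did not overlap. With so few arrays this can arise easily, and how many of all genes separated there was not counted. Fgb was at 12.19, 12.12, 12.16, 12.21 and 11.87 in DEN WT livers, against 12.12, 12.24 and 12.25 in untreated WT livers, and Serpinc1 at 10.77, 10.90, 10.90, 11.03 and 11.21 in DEN WT livers, against 11.25, 11.17 and 10.94 in untreated WT livers. Both overlapped, and neither was called over all sets or within set 1.

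**Figure D3:**
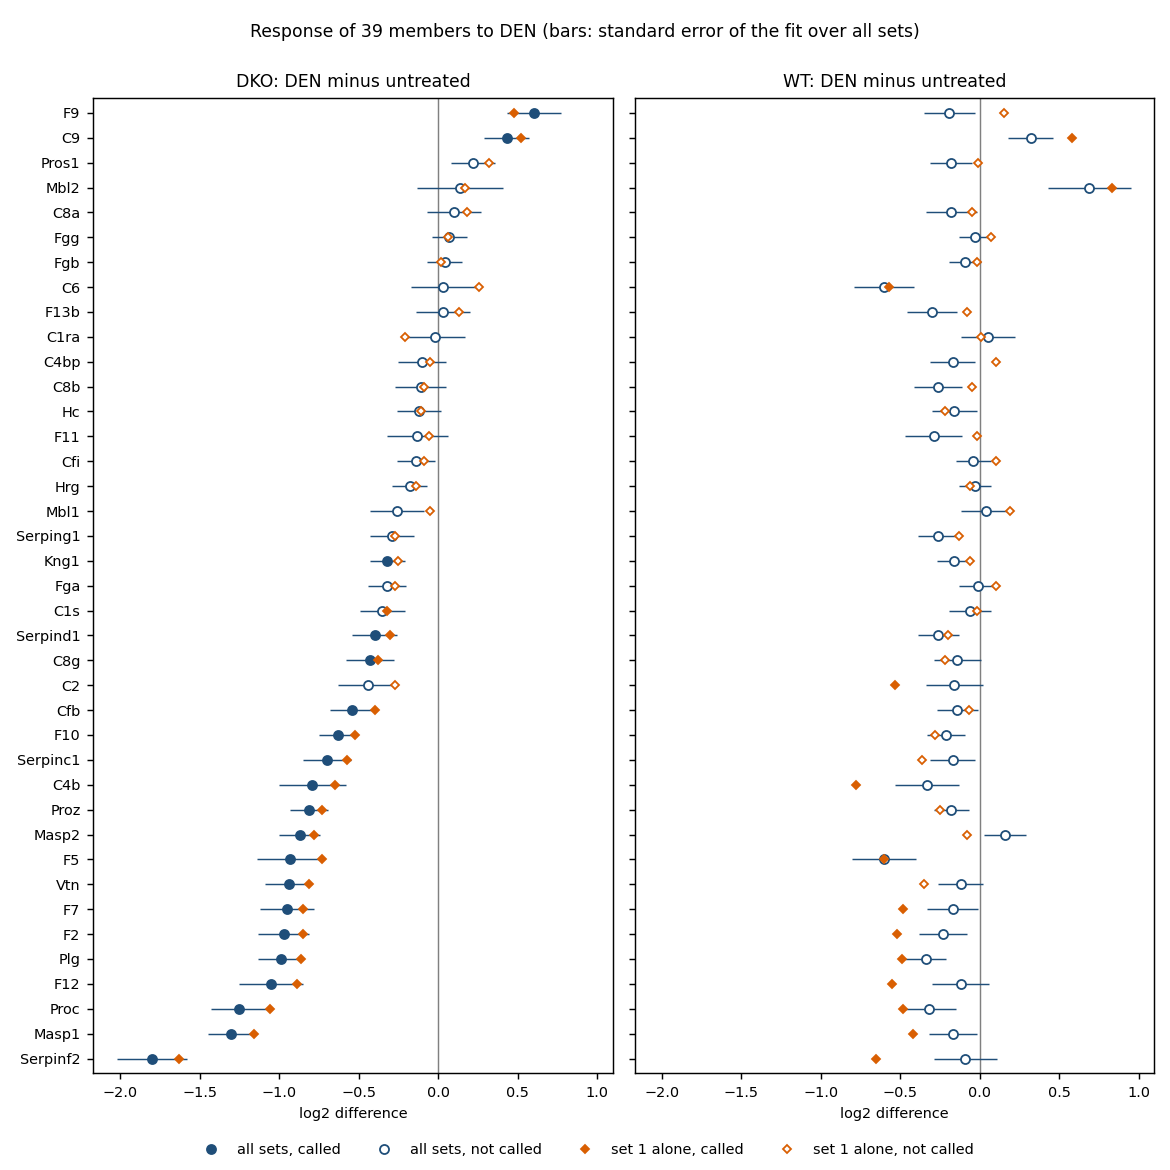
Points are log2 differences, DEN minus untreated, of 39 genes in DKO livers (left) and WT livers (right), over all array sets (circles, with SE bars) and within set 1 (diamonds), and filled markers were called at an adjusted p under 0.05. In DKO livers the all-set and set 1 values lie close together from Serpinf2 (-1.80 and -1.63) to F9 (0.60 and 0.48), while in WT livers those of Serpinf2 are -0.09 and -0.65.

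The difference between the responses, DEN in DKO minus DEN in WT, was called for 11 genes, of which 10 were more negative in DKO livers and 1 was more positive. Over all tested genes, 8.54% were called in the negative and 1.36% in the positive direction. Serpinf2 (-1.71, SE 0.30, limma adjusted p = 0.000829), Masp1 (-1.13, SE 0.21, limma adjusted p = 0.00147) and Masp2 (-1.02, SE 0.18, limma adjusted p = 0.00106) were called under every alternative listed for this comparison and without each array in turn. Masp2 was at 8.54, 8.67, 8.78, 9.16 and 9.17 in DEN WT livers, against 8.76, 8.72 and 8.60 in untreated WT livers, which overlapped. Proc (-0.94), F12 (-0.93), Vtn (-0.82), F7 (-0.78), F2 (-0.74), Plg (-0.65), Proz (-0.63) and F9 (0.79) were also called, with limma adjusted p-values from 0.0123 to 0.0337. Each of these 8 calls ended without untreated WT replicate 3, the untreated array of set 2, with adjusted p-values from 0.0818 to 0.214 (Proz and F12), and 3 calls were left. Other arrays also ended some of them in turn: untreated DKO replicate 1 those of F7, F9, Proz and F12, untreated DKO replicate 3 those of F2, F7, F9 and Plg, untreated DKO replicate 2 those of F2 and Plg, DEN WT replicates 4 and 5 those of F7 and F9, and DEN DKO replicate 3 that of F7. Within set 1 there were 4 negative calls (Serpinf2 -0.98, Masp1 -0.74, Masp2 -0.70 and Proc -0.58) and 1 positive call (C6 0.83, limma adjusted p = 0.0401), where 6.09% of all genes were negative and 1.27% positive. Fgb, Fgg, Fga and Serpinc1 were not called, with limma adjusted p-values of 0.646, 0.727, 0.263 and 0.104.

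Before DEN, 0 of 39 genes were called between untreated DKO and untreated WT livers by limma, and 8 had an unadjusted p under 0.05, where 0.244% of all genes were lower and 0.865% higher. Their median log2 difference was 0.10, against 0.01 over all tested genes. Within set 1, with 3 DKO and 2 WT arrays, Serpinf2 (0.47, SE 0.12, limma adjusted p = 0.0269) and Mbl1 (0.42, SE 0.12, limma adjusted p = 0.04) were higher in untreated DKO livers. C6 was lower there (-0.73, SE 0.18, limma adjusted p = 0.0179), and 1.8% of all genes were lower and 3.79% higher within set 1. C6 was at 4.71, 4.35 and 4.47 in untreated DKO livers, against 5.55, 4.93 and 4.87 in untreated WT livers, with no overlap. Serpinf2 was at 10.84, 10.70 and 10.70 in untreated DKO livers, above both set 1 arrays of untreated WT livers.

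Among DEN livers, 10 of 39 genes were lower and 0 higher in DKO than in WT, where 9.14% of all genes were lower and 2.69% higher. The median log2 difference of the 39 genes was -0.12, against -0.03 over all tested genes. Serpinf2 was at 9.14, 9.30, 8.91, 8.34 and 8.44 in DEN DKO livers, against 9.62, 9.56, 9.70, 9.61 and 9.80 in DEN WT livers, with no overlap and a log2 difference of -0.92 (SE 0.20, limma adjusted p = 0.00406). The lectin pathway genes Mbl2 (-0.76, SE 0.25, limma adjusted p = 0.0489), Masp2 (-0.68, SE 0.12, limma adjusted p = 0.00104) and Masp1 (-0.63, SE 0.14, limma adjusted p = 0.00593) followed. With no adjustment for array set, the mean of Mbl2 was 9.50 in DEN DKO and 9.52 in DEN WT livers, and the groups overlapped. Its call was kept in 4 of 11 other settings and ended, among others, with no set term. F12 (-0.58), Plg (-0.50), F2 (-0.48), Vtn (-0.46), Proz (-0.44) and Serpinc1 (-0.42) were the other 6, with limma adjusted p-values from 0.0114 to 0.048. The calls of Serpinf2, Masp1, Masp2, Proz and Plg held without each array in turn. Without DEN DKO replicate 3 the calls of Mbl2, Vtn, F2, F12 and Serpinc1 ended, and 5 calls were left. Without DEN DKO replicate 1 all of these but Vtn ended, and 6 calls were left. Further arrays that ended a call in turn were DEN WT replicates 1 and 2 and DEN DKO replicates 2 and 5 for Mbl2, DEN WT replicate 1 for Vtn, and DEN WT replicate 5 for F2. For F12 they were DEN WT replicates 4 and 5 and DEN DKO replicates 4 and 5, and for Serpinc1 each array but DEN DKO replicate 2. The adjusted p-values were up to 0.122. With only these groups in the fit, 0 genes were called. Within set 1 there were 5 lower genes (Mbl2, Serpinf2, Masp2, Masp1 and Proz, from -0.68 to -0.36) and 0 higher, where 7.97% of all genes were lower and 2.88% higher.

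In DEN RbKO livers, 9 of 39 genes were lower and 2 higher than in DEN WT livers, where 6.13% of all genes were lower and 5.23% higher. The median log2 difference of the 39 genes was -0.06, against -0.04 over all tested genes. Serpinf2 was at 8.94, 8.93, 8.90 and 8.27 in DEN RbKO livers, below all 5 DEN WT arrays, with a log2 difference of -0.98 (SE 0.19, limma adjusted p = 0.00267). Masp2 was at 8.07, 8.21, 8.06 and 8.13 in DEN RbKO livers, against 8.54 to 9.17 in DEN WT livers, and fell by 0.72 (SE 0.12, limma adjusted p = 0.00131). Masp1 was at 7.62, 7.55, 7.62 and 7.59, Proc at 7.29, 7.44, 7.34 and 7.44, and F12 at 7.13, 7.29, 7.35 and 6.92 in DEN RbKO livers. All 4 arrays lay below the 5 DEN WT arrays for each of these 3 genes. How many of all genes separated in this way was not counted. For Proc the closest values were 7.44 in DEN RbKO and 7.45 in DEN WT livers, and Proc was not called over all sets (-0.42, SE 0.15, limma adjusted p = 0.0767). F7 (-0.65), F12 (-0.65), Plg (-0.52), Vtn (-0.52), Masp1 (-0.47), F2 (-0.44) and Hrg (-0.38) were also lower, with limma adjusted p-values from 0.00588 to 0.0382. Pros1 (0.49, SE 0.12, limma adjusted p = 0.0136) and F13b (0.45, SE 0.14, limma adjusted p = 0.0446) were higher. Without the array labelled DEN RbKO replicate 4, of set 2, the calls of Masp1, F2, F7, Pros1, F12, F13b and Plg ended, with an adjusted p of up to 0.421 (F13b), and 4 calls were left. The call of Masp1 also ended without DEN RbKO replicate 2 and without DEN WT replicates 4 and 5. That of F2 ended without any of DEN WT replicates 3 to 5 or any RbKO array, and that of F13b without any of DEN WT replicates 1, 4 and 5 or of DEN RbKO replicates 2 and 3. Within set 1, 7 genes were lower and 0 higher (Serpinf2 -0.70, Masp2 -0.55, Vtn -0.52, F12 -0.52, Proc -0.48, Hrg -0.47 and Plg -0.45), where 2.38% of all genes were lower and 0.959% higher. In set 2 the array labelled DEN RbKO replicate 4 was the sole RbKO array, so its differences from the 2 DEN WT arrays are given with no p. The largest of these differences were 0.88 to 1.13 for F5, F9, C8a, F13b and F11 and -1.43 to -0.80 for Serpinf2, F7, Masp2, C4b and F12. F13b was at 1.04 there, against 0.17 within set 1 (limma adjusted p = 0.526).

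In DEN p53KO livers the count depended most on which arrays were used. Over all sets, 2 of 39 genes were lower than in DEN WT livers and 0 higher, where 1.07% of all genes were lower and 0.708% higher. The median log2 difference of the 39 genes was -0.18, against -0.01 over all tested genes. The 2 genes were F12 (-0.74, SE 0.20, limma adjusted p = 0.0498) and Masp2 (-0.52, SE 0.13, limma adjusted p = 0.0457). Each call ended without any of 7 arrays in turn (DEN p53KO replicates 1 to 3 and DEN WT replicates 2 to 5), with an adjusted p of up to 0.233. F12 was at 6.94, 6.99, 6.61, 6.90 and 6.93 in DEN p53KO livers, against 7.69, 7.79, 7.86, 7.75 and 7.69 in DEN WT livers, and the groups did not overlap. Without set 2, a fit chosen after seeing the data, 0 genes were called, where 0.809% of all genes were lower and 0.407% higher. Within set 1, with 2 p53KO and 3 WT arrays, 14 genes were lower and 0 higher, where 4.36% of all genes were lower and 1.55% higher. F12 (-0.82), F5 (-0.78), C4b (-0.65), Proc (-0.65), Cfb (-0.55), Serpinf2 (-0.54), Masp2 (-0.53) and Vtn (-0.50) had the largest of these differences, with limma adjusted p-values from 0.00237 to 0.0319. F2, Plg, Masp1, F10, Proz and Serpinc1 were the other 6. Serpinf2 was at 9.17, 8.99, 9.20, 9.24 and 9.27 in DEN p53KO livers, below all 5 DEN WT arrays, and its log2 difference over all sets was -0.52 (SE 0.22, limma adjusted p = 0.215). Masp2 was at 8.08, 8.19, 8.20, 8.30 and 8.22 in DEN p53KO livers and Masp1 at 7.56, 7.49, 7.68, 7.80 and 7.70, both below all 5 DEN WT arrays. Proc was at 7.11, 7.26, 7.62, 7.72 and 7.76 in DEN p53KO livers and overlapped the DEN WT arrays.

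**Figure D4:**
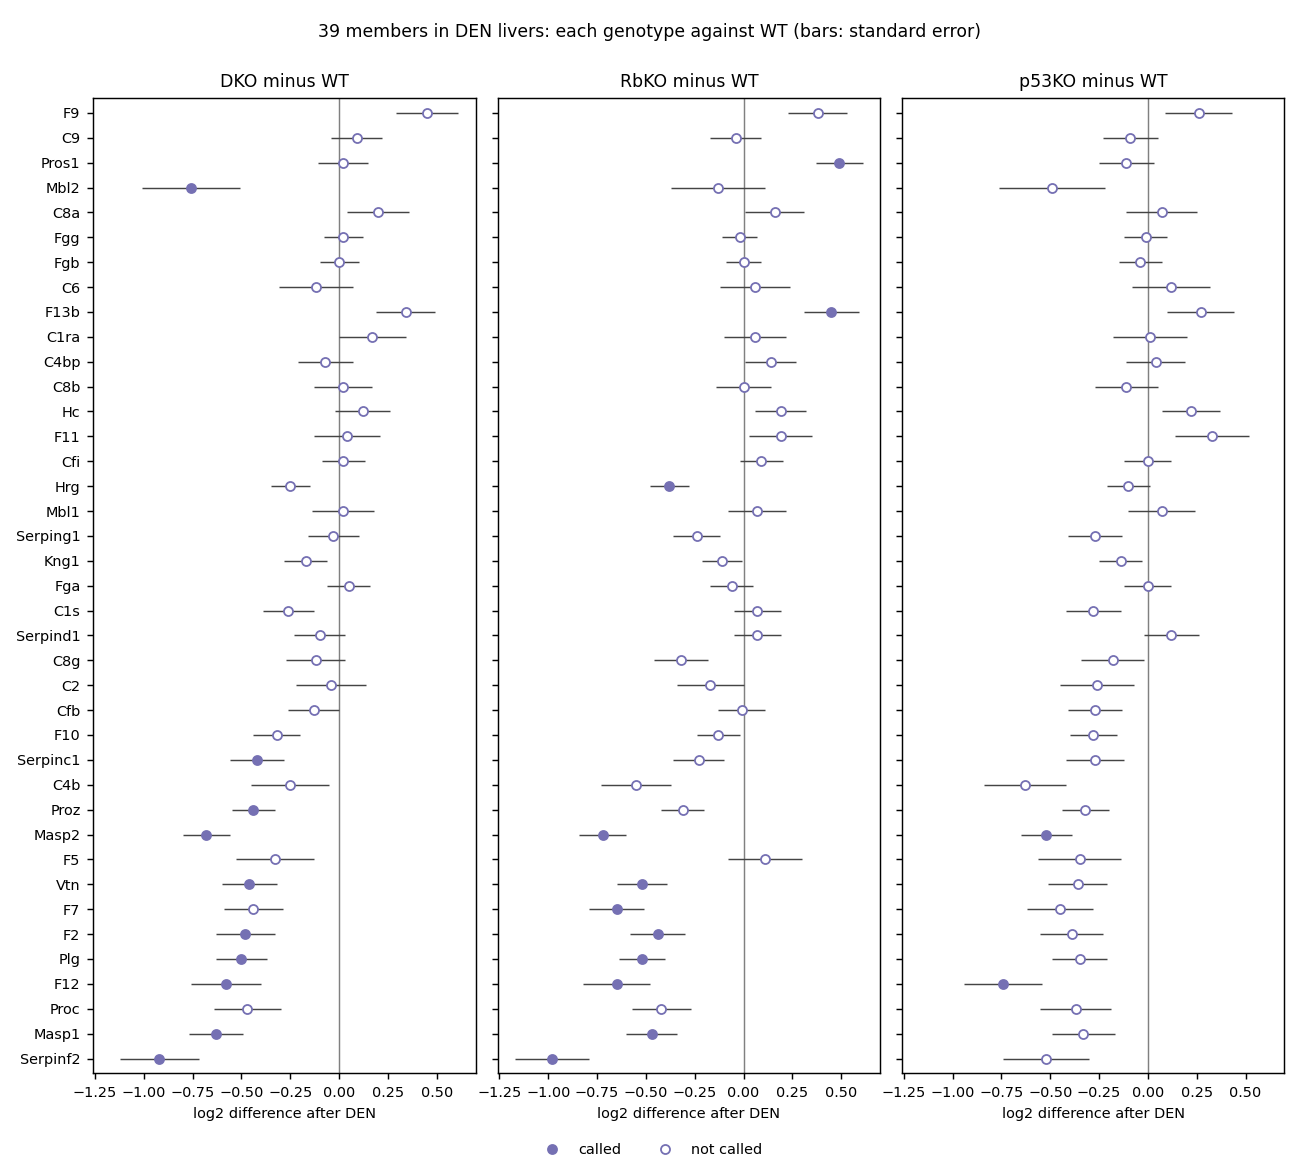
Points are log2 differences of 39 genes between each DEN-treated genotype and DEN WT livers, over all array sets with SE bars, and filled markers were called at an adjusted p under 0.05. Serpinf2 and Masp2 are lower in DKO (-0.92 and -0.68) and in RbKO (-0.98 and -0.72), while in p53KO F12 and Masp2 were called (-0.74 and -0.52).

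No gene was called between DEN DKO and DEN p53KO livers over all sets by limma, with 3 at an unadjusted p under 0.05, where 1.51% of all genes were lower and 0.357% higher. Within set 1, 7 genes were higher and 0 lower in DKO than in p53KO: C4b (0.72), C2 (0.63), F12 (0.55), F5 (0.52), Cfb (0.49), Mbl1 (0.48) and C9 (0.41), with limma adjusted p-values from 0.0197 to 0.0476. Within set 1, 2.5% of all genes were lower and 2.37% higher. Within set 3, with 2 DKO and 3 p53KO arrays, the differences of the same 7 genes were 0.04 for C4b, -0.21 for C2, -0.22 for F12, -0.48 for F5, -0.21 for Cfb, -0.58 for Mbl1 and -0.06 for C9, and none of these was called. Serpinf2 was lower in DKO within set 3 (-0.84, SE 0.16, limma adjusted p = 0.0414), against 0.03 within set 1. Mbl1 was at 7.51 and 7.85 in DEN DKO livers of set 3, against 8.14, 8.31 and 8.33 in DEN p53KO livers of set 3. Between DEN DKO and DEN RbKO livers 0 genes were called by limma, with 4 at an unadjusted p under 0.05, where 0.884% of all genes were lower and 0.144% higher. Within set 1, Mbl2 was lower in DKO (-0.79, SE 0.16, limma adjusted p = 0.016) and 0 genes were higher, where 1.18% of all genes were lower and 0.545% higher. Mbl2 was at 9.77, 9.41 and 9.50 in DEN DKO livers of set 1, against 10.29, 10.39 and 10.36 in DEN RbKO livers of set 1, with no overlap. These comparisons share the DEN DKO arrays, and the comparisons with WT share the DEN WT arrays.

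Other genes of complement and clotting, listed for their function, also fell in DKO livers after DEN. Of 19 other complement genes measured, 6 were lower and 0 higher, where 16.5% of all genes were lower and 4.49% higher. Clu (-0.75, SE 0.13, limma adjusted p = 0.000172), the gene of clusterin, which binds the terminal complex, and C1qa (limma adjusted p = 0.00118, with a difference of -0.92 within set 1), a chain of C1q made largely by macrophages, had the smallest p-values. Cd59a and the lectin Fcna followed, at -0.81 and -0.67. Of 24 other clotting and fibrinolysis genes, 7 were lower and 1 higher, against the same shares of all genes. Ggcx (-1.24, SE 0.21, limma adjusted p = 0.000181) encodes the carboxylase that the vitamin K dependent factors need, and Habp2 (-1.20), Hgfac (-1.22) and Tmprss6 (-0.92) encode liver serine proteases. Vkorc1 (-0.61, limma adjusted p = 0.0071), the reductase that recycles vitamin K, was chosen for naming after its value was seen. Tfpi2, a protease inhibitor, was higher by 0.53 (limma adjusted p = 0.0351), and this call ended without any of 5 arrays in turn, with an adjusted p of up to 0.127 without untreated DKO replicate 1. In WT livers, 0 of the 19 complement genes were called after DEN, where 1.91% of all genes were lower and 2.08% higher. Of the 24 clotting genes Tfpi was lower (-0.56, limma adjusted p = 0.0441). The call of Tfpi ended without any of 6 arrays in turn, with an adjusted p of up to 0.218.

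Acute phase genes outside the 39 did not move as a block in DKO livers, where 9 of 26 rose and 8 fell after DEN. In this comparison 16.5% of all genes were lower and 4.49% higher. Saa1 was at 9.19, 9.29, 9.56, 9.86 and 10.06 in DEN DKO livers, against 4.16, 5.99 and 4.31 in untreated DKO livers, a log2 difference of 5.09 (SE 0.67, limma adjusted p = 1.08e-05). Saa2 (4.66) and Orm1 (3.79) rose too, and Hp fell by 0.55 (SE 0.12, limma adjusted p = 0.00158). The other genes that fell were Lbp (-1.05), Serpina3n (-1.04), Itih3 (-0.86), Itih4 (-0.80), Il6ra (-0.77), Stat3 (-0.77) and Hpx (-0.35). The call of Il6ra ended without any of 2 arrays in turn, and that of Hpx without any of 8. Within set 1, 8 rose and 8 fell in DKO livers, where 6.56% of all genes were higher and 18.7% lower. In WT livers 8 of the 26 rose and 0 fell over all sets, and 8 rose and 3 fell within set 1. Of all genes in WT livers, 2.08% were higher and 1.91% lower over all sets. Within set 1 these shares were 5% and 5.96%. Over all sets the genes that rose in WT livers included Saa1 (3.52, limma adjusted p = 0.00173), Saa2 (4.31) and Orm1 (1.90, limma adjusted p = 0.0267). The call of Orm1 in WT ended without any of 4 arrays in turn, with an adjusted p of up to 0.239 without untreated WT replicate 2. Of 7 hepatocyte transcription factor genes, 3 were lower after DEN in DKO livers: Ppara (-1.46), Hnf4a (-1.37, SE 0.21, limma adjusted p = 6.1e-05) and Nr1i3 (-1.01). In WT livers Hnf4a was lower too (-0.76, SE 0.20, limma adjusted p = 0.0309 over all sets), a call that ended without any of 5 arrays in turn, with an adjusted p of up to 0.321 without untreated WT replicate 2. Within set 1 all 3 were lower in WT livers as well, with Hnf4a at -1.36, Nr1i3 at -1.09 and Ppara at -0.80, against -1.33, -0.97 and -1.28 in DKO livers.

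Several lists of cell type markers moved with the DEN comparison in DKO livers, where 16.5% of all genes were lower and 4.49% higher. Of 8 hepatocyte markers 4 were lower and 1, Alb, was higher (0.34, limma adjusted p = 0.0282, ended without any of 3 arrays in turn), and the mean of the list was 11.52 to 11.70 log2 in DEN DKO livers, against 11.78 to 11.93 in untreated DKO livers. Of 8 endothelial markers 6 were lower, with a mean of 5.73 to 6.01 in DEN DKO livers, against 6.64 to 6.71 in untreated DKO livers. Of 8 stellate and matrix markers 5 were lower, with a mean of 5.59 to 5.79 in DEN DKO livers, against 6.34 to 6.43 in untreated DKO livers. Of 7 neutrophil and myeloid precursor markers 5 were lower, with a mean of 4.89 to 5.97 in DEN DKO livers, against 6.35 to 7.10 in untreated DKO livers. In untreated DKO livers 3 of these 7 were higher than in untreated WT livers, where the mean was 4.77 to 4.94. Of all genes, 0.865% were higher in untreated DKO livers. Of the other lists, 2 of 8 Kupffer and macrophage markers, 1 of 4 lymphocyte markers and 1 of 5 platelet and megakaryocyte markers were lower in DKO livers after DEN. Of 5 erythroid markers 2 were lower and 1 higher, and 0 of 4 cholangiocyte markers were called. In WT livers after DEN, 1 endothelial and 1 stellate marker were lower over all sets, where 1.91% of all genes were lower. There 1 neutrophil marker was higher, where 2.08% of all genes were higher. Within set 1, 3 endothelial, 1 stellate, 1 hepatocyte and 1 lymphocyte marker were lower in WT livers, where 5.96% of all genes were lower. There 1 neutrophil and 1 Kupffer marker were higher, where 5% of all genes were higher. The part of these shifts in the results for the 39 genes was not tested.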

How the data were processed

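Per the labels' protocols, RNA of frozen livers was amplified, given a biotin label and measured on Affymetrix mouse gene arrays with 1 colour. The deposited values are log2 signals per probe set, made by the authors with RMA in Affymetrix Expression Console 1.1, per the submitters' processing notes. RMA corrects background, brings arrays to a common distribution and summarises probes, so differences are relative to the other probes of an array. Whether the 25 arrays were normalized in 1 run, the genome build and the sexes are not given in the sources used here.

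Probe sets naming 1 gene were kept (21789 of 35555), with the highest mean taken for a gene with several. Genes with a mean under the 20th percentile (3.33 log2) were left out, which left 15951. In R 4.3.3, limma 3.58.1 (lmFit, eBayes) estimated group means and an array-set term from the 25 arrays together, and its two-sided p-values were adjusted by Benjamini-Hochberg over all genes tested. SE is limma's moderated standard error. Overlap of groups was described for named genes only, and the share of all genes with no overlap was not counted. The fit was tested on simulated data. The number of arrays limits the precision.

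The members and lists were chosen with earlier results of these data known. In each comparison called members were ordered by absolute difference, and up to 8 per direction were named with values. Members with a called difference over 1, and Fga, Fgb, Fgg, Plg, F2 and Serpinc1, were given array by array, and from other lists up to 4 called genes in order of p plus Saa1, Saa2, Orm1, Hp and Alb. The other acute phase genes that fell in DKO livers were named after their values were seen. Alternatives were other set terms, single sets, filters, probe set rules, centring, a further quantile normalization, eBayes settings, fits of only the groups compared, and each array left out. RefSeq tables (GRCm38.p6) gave current symbols and promoter windows. A further motif that was searched is not reported here.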

Additional observations from a re-analysis of the deposited data

Results flagged for a closer look

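Dixon's test was run for each gene in each group of 4 or 5 arrays, 156 times in all, and placed 12 values apart from the rest of their group, where chance gives about 1 in 20 (7.8). The 12 values lay on 5 arrays, and 10 of them were from array set 2. DEN RbKO was the only tested group with just 1 array from another set than the rest, so a shift of set 2 can show there as values apart. Genes on 1 array are not independent, so the number given for chance is only a rough guide. On the array labelled DEN RbKO replicate 4, C4b was at 6.97 log2 (others 7.42 to 7.52), Mbl1 at 7.47 (8.77 to 8.94), Mbl2 at 7.68 (10.29 to 10.39) and Serpinf2 at 8.27 (8.90 to 8.94). On the same array Hc was at 10.27 (others 8.18 to 8.38), C8a at 9.64 (8.80 to 8.92), F11 at 9.11 (8.12 to 8.26) and Serpinc1 at 11.05 (10.57 to 10.62). On DEN WT replicate 4 Proc was at 7.45 (others 7.81 to 7.85), and on DEN WT replicate 5 Fgb was at 11.87 (others 12.12 to 12.21). The others were Cfb at 10.39 on DEN p53KO replicate 2 of set 1 (others 10.55 to 10.59) and F12 at 6.61 on DEN p53KO replicate 3 of set 3 (others 6.90 to 6.99).

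The DEN response differed between DKO and WT livers, by the interaction term of limma, for 11 genes. The log2 difference of the responses, DKO minus WT, was -1.71 for Serpinf2, -1.13 for Masp1, -1.02 for Masp2, -0.94 for Proc, -0.93 for F12, -0.82 for Vtn, -0.78 for F7, -0.74 for F2, -0.65 for Plg, -0.63 for Proz and 0.79 for F9. Without untreated WT replicate 3, of set 2, the calls of Serpinf2, Masp1 and Masp2 remained.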

How the results depend on the processing

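Counts of called genes moved with the array sets used and with other settings. Leaving out each array in turn gave 0 to 2 calls for DEN in WT, 16 to 20 for DEN in DKO, 3 to 11 for the difference of these responses, 0 to 0 for DKO against WT untreated, 0 to 2 for p53KO, 4 to 12 for RbKO and 5 to 11 for DKO against WT after DEN. For DKO against p53KO and against RbKO it gave 0 to 0. Within set 1 the counts were 13 for DEN in WT, 5 for the response difference, 3 for DKO against WT untreated, 14 for p53KO, 7 for RbKO and 5 for DKO against WT, 7 for DKO against p53KO and 1 for DKO against RbKO. With no set term they were 7 for the response difference, 8 for p53KO and 5 for RbKO. Without set 2, chosen after seeing the data, they were 5 for DEN in WT, 3 for the response difference, 0 for p53KO, 3 for RbKO, 6 for DKO against WT and 1 for DKO against RbKO after DEN. Set 3 alone gave 1 for DKO against p53KO. With only the groups compared they were 6 for the response difference, 2 for DKO against WT untreated, 7 for RbKO, 0 for DKO against WT and 1 for DKO against RbKO after DEN. A further quantile normalization gave 5 for the response difference, 0 for p53KO and 6 for DKO against WT. For p53KO, no filter and centring of each array gave 0 and the mean of all probe sets 1. Shares of all genes called were counted over all sets, within set 1 and, for p53KO, without set 2. For the other settings they were not counted, so whether all genes moved alike there was not tested. The cause of these shifts was not tested either. The count for DEN in DKO stayed within 1.5 times of 20 under every alternative run, and none of the genes called over all sets changed direction under the alternatives run. With no set term, DEN in DKO had 21 lower and 0 higher calls, so those of F9 and C9 ended. Centring shifted the median of all genes by -0.01 to 0.04 log2. No paired analysis was possible because the groups share no replicate numbers that mark common animals, litters or days. The 3 to 5 arrays of each group limit what differences could be seen. Whether signals near the top of the scale do so too was not tested.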
